A study of Mus musculus with 16 samples.

Results

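The tectorial membrane is the extracellular gel that lies over the sensory hair cells of the cochlea. Noncollagenous glycoproteins of this gel, or of close family, were followed here through their genes *Tecta*, *Tectb*, *Otog*, *Otogl*, *Otoa*, *Ceacam16* and *Umodl1*. They were chosen by gene symbol, and each symbol matched a single row of the 50316 genes listed, which made 7 genes in all. The gel is built during development from proteins that the cells of the cochlear floor secrete towards the lumen. These are mainly cells of the greater epithelial ridge (GER, the epithelium medial to the inner hair cells), interdental cells and supporting cells of the organ of Corti. α-Tectorin (*Tecta*) and β-tectorin (*Tectb*) carry zona pellucida domains and form the striated-sheet matrix that holds the collagen fibrils. Otogelin (*Otog*) and otogelin-like (*Otogl*) are large mucin-like glycoproteins, otoancorin (*Otoa*) attaches the gel to the spiral limbus, and CEACAM16 joins the tectorin matrix during maturation. UMODL1 is a zona pellucida domain protein related to uromodulin.

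RNA was measured in cochleae of P4 mice in 4 groups of 4 libraries. Control mice carried *GLAST-CreERT* and *Rpl22-HA* (RiboTag, a ribosomal protein that gains an HA tag where Cre has acted). DTR mice carried both alleles and *Lgr5-DTR*, which places the receptor for diphtheria toxin (DT) in cells that express *Lgr5*. The sample labels call the controls untreated and the other mice DTR treated, whereas the study's methods give DT and tamoxifen to both genotypes. Each replicate was a pool of cochleae from several mice, dissected free of spiral ganglion and lateral wall. Of the homogenate, 5% gave the input, which is RNA of all cells present, and 95% was used to precipitate tagged ribosomes (IP), which enriches RNA of the GLAST-Cre lineage, spanning inner phalangeal cells and the GER, while RNA of other cells remains in it. Because replicates are pools, p-values measure the spread between pools. The main tests did not use the sharing of a pool by input and IP, which entered an alternative fit only. Counted reads per library ranged from 35517482 to 41966310 in control input, 30586938 to 34362992 in control IP, 32764633 to 39158473 in DTR input and 28089836 to 31119045 in DTR IP. Levels are the deposited CPM, which are counts scaled to a fixed total of reads on genes in each library.

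*Lgr5* and *Slc1a3* served as checks of the labels. *Lgr5*, which drives the receptor, averaged 63.3 ± 3.03 CPM (SD, n = 4) in control input and 15.9 ± 3.69 CPM in DTR input. In IP it averaged 36.6 ± 3.99 CPM in controls and 9.38 ± 1.40 CPM in DTR, and the genotypes did not overlap in input or IP. *Slc1a3*, which encodes GLAST, was present in every library at 195 to 303 CPM. It was not higher in IP than in input: the log2 fold change (LFC) was −0.20 in controls (adjusted p = 0.102) and −0.27 in DTR (adjusted p = 0.0299). The latter fell short of the threshold when the compared groups were fitted alone (adjusted p = 0.0742). Control input replicate 3 held the highest value of *Tecta*, *Otog*, *Otogl*, *Otoa* and *Umodl1* among the control input libraries, and for these genes the comparisons with control input are also given without it.

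In undamaged cochleae these genes spanned a wide range of expression. By CPM, *Tectb* was the most abundant of all genes in control IP, ranked 1 in each of the 4 libraries. It was followed by *Clu* (11187 ± 2182 CPM), *Lars2* (10285 ± 3722 CPM), *Col2a1* (8707 ± 2001 CPM) and *Sparc* (7842 ± 1787 CPM). *Tecta* ranked 16 by mean CPM in control IP, *Otog* 156, *Otoa* 354, *Otogl* 6818, *Umodl1* 12110 and *Ceacam16* 17013. Summed, the 7 genes took 1.72% to 2.42% of counted reads in control IP and 1.10% to 1.76% in control input. After damage they took 0.974% to 1.27% in DTR IP and 0.798% to 1.17% in DTR input. By mean CPM *Tectb* no longer led in DTR IP. *Col2a1* (11676 ± 1797 CPM), *Clu* (9722 ± 1774 CPM) and *Lars2* (9468 ± 3309 CPM) preceded it there, and *Sparc* (8354 ± 1473 CPM) followed. Reads of a gene also grow with its length, so levels of different genes were compared as CPM per kilobase of exon. On that scale the mean order in control IP was *Tectb* 4321, *Tecta* 398, *Otog* 51.1, *Otoa* 38.3, *Otogl* 3.84, *Umodl1* 1.03 and *Ceacam16* 0.287. In control input the order was *Tectb* 2423, *Tecta* 531, *Otoa* 110, *Otog* 25.7, *Umodl1* 8.56, *Otogl* 6.89 and *Ceacam16* 0.285, so *Otog* and *Otoa* changed places between input and IP, as did *Otogl* and *Umodl1*.

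**Figure D1:**
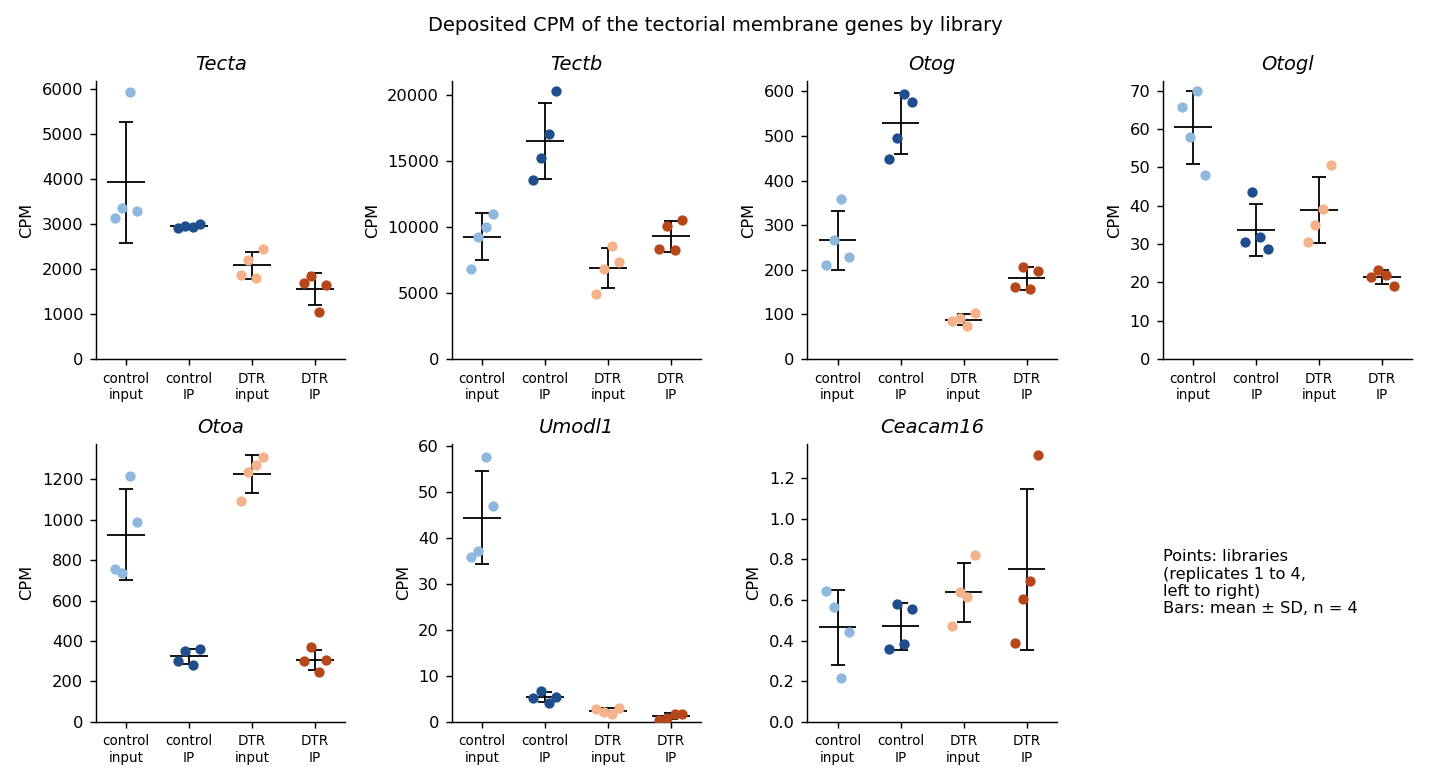
Deposited CPM of the 7 genes (vertical axes, each from 0) in input and IP of control and DTR cochleae. Points are libraries and bars the mean ± SD of 4 libraries. *Tectb* is highest in control IP, *Otoa* is high in both inputs, and *Umodl1* exceeds 30 CPM in control input alone.

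The 250 bases before the RefSeq start of transcription (GRCm38.p6) are shown for the genes whose level after damage is described below, with *Otoa*, which was not called lower after damage, beside them. Capitals mark matches, on either strand, to 8 short motifs. TATAAA marks the core promoter. Zinc finger factors such as GATA3 bind GATAAG, while SOX proteins bind either ACAAAG or the variant form ACAATG. The motif of TCF and LEF proteins in Wnt signalling is CTTTGA, and that of RBPJ in Notch signalling is TGGGAA. The motif of AP-1 proteins is TGANTCA, and nuclear receptors bind the half-site AGGTCA. The reverse of the TCF and LEF motif shares 5 letters with the first SOX motif, and no matches overlapped in these windows. The RefSeq table held entries for 5 of the 7 genes. By the gene positions given below, the *Otoa* window lies inside the gene, which starts at 121081650. The *Umodl1* window runs past a gene start at 30954640.
Tectb, chr19:55180476-55180725, plus strand: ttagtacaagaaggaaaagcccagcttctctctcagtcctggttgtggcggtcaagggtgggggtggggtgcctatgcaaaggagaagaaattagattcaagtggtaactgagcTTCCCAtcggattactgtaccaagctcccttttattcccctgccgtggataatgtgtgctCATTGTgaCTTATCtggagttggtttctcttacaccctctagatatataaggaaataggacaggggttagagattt
Otog, chr7:46240737-46240986, plus strand: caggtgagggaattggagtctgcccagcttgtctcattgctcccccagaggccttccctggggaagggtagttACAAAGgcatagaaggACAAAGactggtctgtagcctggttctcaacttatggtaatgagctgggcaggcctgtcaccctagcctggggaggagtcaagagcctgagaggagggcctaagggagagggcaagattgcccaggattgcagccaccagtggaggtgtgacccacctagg
Tecta, chr9:42399948-42400197, minus strand: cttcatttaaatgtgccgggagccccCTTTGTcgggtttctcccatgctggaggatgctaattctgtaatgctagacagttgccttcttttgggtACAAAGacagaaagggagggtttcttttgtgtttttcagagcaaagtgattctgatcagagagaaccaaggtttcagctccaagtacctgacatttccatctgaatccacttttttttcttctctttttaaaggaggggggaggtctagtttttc
Umodl1, chr17:30954433-30954682, plus strand: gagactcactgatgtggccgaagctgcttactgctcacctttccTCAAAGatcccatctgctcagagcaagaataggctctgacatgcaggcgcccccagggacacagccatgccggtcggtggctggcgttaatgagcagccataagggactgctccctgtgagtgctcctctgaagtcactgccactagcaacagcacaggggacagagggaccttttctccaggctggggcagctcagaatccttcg
Otoa, chr7:121083174-121083423, plus strand: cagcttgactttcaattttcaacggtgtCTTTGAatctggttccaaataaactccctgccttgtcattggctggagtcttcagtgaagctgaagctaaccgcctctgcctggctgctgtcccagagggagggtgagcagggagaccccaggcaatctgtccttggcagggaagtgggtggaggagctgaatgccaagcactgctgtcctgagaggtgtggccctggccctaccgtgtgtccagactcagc
ACAAAG was found at 2 places each in *Otog* and *Tecta*, and 16.5% of all 32851 promoters of this length hold it. The *Tectb* window held TGGGAA (in 21.6% of promoters), ACAATG (10.7%) and GATAAG (6.55%), each on the opposite strand and starting 136, 76 and 68 bases before the start. CTTTGA, present in 13.8% of promoters, was found in *Umodl1* and *Otoa*. TATAAA (12.4%), TGANTCA (6.75%) and AGGTCA (14%) were in none of the 5 windows, nor was any of the 8 motifs in the window of the other RefSeq start of *Tecta* at chr9:42401691-42401940. These matches are descriptions of letters and were not tested as binding sites.

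Tests used limma on log2 of quantile normalized CPM plus 0.5, over 16994 genes, those that reached 0.5 CPM in every library of some group. A gene was called at an adjusted p under 0.05 (Benjamini-Hochberg over all tested genes). A stricter rule for damage also asked for an absolute LFC of at least 1 and a separation above 1.5, where separation is the lowest value of the higher group over the highest value of the lower group. For IP against input that rule asked for an absolute LFC of at least 2. Of the 7 genes, 6 were tested and *Ceacam16* was below the filter. In IP against input, *Otog* was higher in both genotypes, whereas *Otogl*, *Otoa* and *Umodl1* were lower in both. In controls 1 gene was called higher, where 19.3% of all tested genes were, and 4 lower, where 20.7% were. Over the alternatives that kept all libraries 1 to 2 were higher and 3 to 4 lower. In DTR 1 was called higher and 3 lower, against 18.6% and 20.5% of tested genes. After damage, 5 of the 6 tested genes were lower in DTR IP than in control IP and none was higher, where 7.30% of tested genes were lower and 8.44% higher. In input, 4 were lower, where 5.21% of tested genes were, and *Otoa* was higher, where 7.17% were, a call that was lost under 16 of the 26 alternatives run. *Otog* and *Umodl1* met the stricter rule in both IP and input, which 1.34% and 1.00% of tested genes met as lower. The median LFC after damage of the 6 genes was −0.78 in IP and −0.87 in input, beside −0.0043 and −0.021 over all tested genes. In bulk samples, fewer cells of a type and less RNA per cell cannot be told apart.

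**Figure D2:**
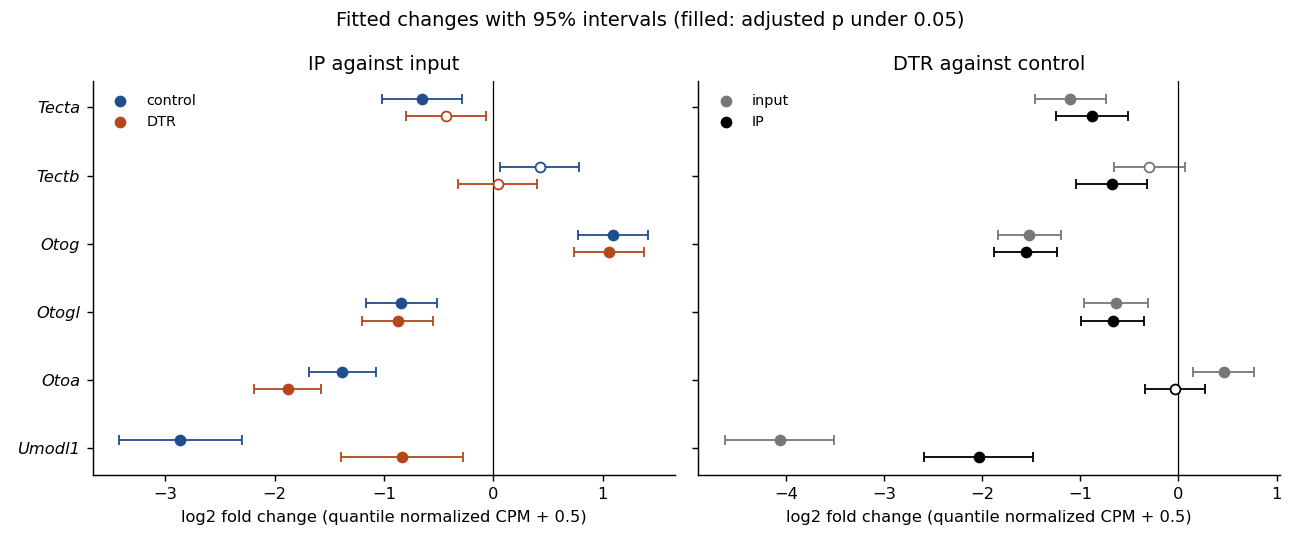
Fitted LFC (horizontal axes) with 95% intervals for the 6 tested genes, IP against input in control and DTR (left) and DTR against control in input and IP (right). Filled points have an adjusted p under 0.05. In IP against input *Otog* lies to the right with filled points in both genotypes. *Tectb* in control also lies to the right, with an interval above 0 and an open point. After damage *Otoa* alone lies to the right in input, and its interval in IP spans both sides.

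β-Tectorin showed the highest level. *Tectb* (chr19:55180733-55196313, plus strand, GRCm38, 3.82 kb of exon) had 6821, 9265, 9995 and 10942 CPM in control input and 13509, 15217, 17045 and 20255 CPM in control IP, for replicates 1 to 4. DTR input had 4892, 6840, 8514 and 7330 CPM, and DTR IP had 8293, 10054, 8264 and 10543 CPM. Every control IP library lay above all others, while DTR IP lay within the range of control input. After damage *Tectb* fell in IP (LFC −0.68 ± 0.17 (SE), adjusted p = 0.0101), with group means of 16506 and 9289 CPM, a 1.78-fold difference. That call was lost without the filter on low values (adjusted p = 0.130). Quantile normalization gave *Tectb* 12913 CPM in all 4 control IP libraries and 8671 or 7500 CPM in DTR IP. Little of its spread within these groups therefore entered the fit. Over the 26 alternatives the LFC ranged from −0.91 to −0.65. In input the groups overlapped and the LFC of −0.30 (95% interval −0.66 to 0.065, adjusted p = 0.327) did not pass. With single libraries left out this LFC ranged from −0.43 to −0.16. DTR input was lower than control input in all 4 pairs of the same replicate number, and with that number as a block the adjusted p was 0.239. In controls, mean CPM was 1.78-fold higher in IP than in input with no overlap, and the IP to input ratio was 1.64 to 1.98 in the 4 pools. The fitted LFC was 0.42 (adjusted p = 0.0572), since quantile normalization gives the top-ranked gene the same value, 12913 CPM, in all 4 control IP libraries. Without that step the LFC was 0.84 (adjusted p = 0.00437), and edgeR on whole reads gave 0.90 (adjusted p = 0.000697). That call was gained under 10 of the 26 alternatives run. In DTR the ratio was 0.971 to 1.70, the groups overlapped, and the LFC of 0.040 (adjusted p = 0.880) did not pass. Mean CPM was 1.35-fold higher in IP there, and without quantile normalization the LFC was 0.45 (adjusted p = 0.108), which did not pass either.

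α-Tectorin came next. *Tecta* (chr9:42329619-42399929, minus strand, 7.41 kb of exon) had 3139, 3357, 5943 and 3290 CPM in control input and 2908, 2952, 2943 and 3005 CPM in control IP. DTR input had 1879, 2195, 1814 and 2451 CPM, and DTR IP had 1703, 1856, 1049 and 1643 CPM. The 4 control IP libraries were nearly equal (SD 40.3 CPM), control input replicate 3 stood far above its group, and all 8 DTR libraries were below all 8 control libraries. After damage *Tecta* fell in input (LFC −1.10 ± 0.17, adjusted p = 0.000204) and in IP (LFC −0.88 ± 0.17, adjusted p = 0.00149), and without control input replicate 3 the change in input was −0.98 (adjusted p = 0.00106). IP was lower than input in controls (LFC −0.65, adjusted p = 0.00563), and without control input replicate 3 the LFC was −0.53 (adjusted p = 0.0255). That call was lost without quantile normalization (LFC −0.36, adjusted p = 0.169) and in edgeR (adjusted p = 0.159). In DTR the LFC was −0.43 (adjusted p = 0.0553), and −0.43 with adjusted p = 0.0115 where pools were a block. That call was gained under 5 of the 26 alternatives run, and with single libraries left out the LFC ranged from −0.55 to −0.27. An antisense gene overlaps *Tecta*, and as the strand setting of the counting is not given in the sources used here, reads of the 2 genes cannot be told apart.

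The proportion of the tectorins differed between the libraries. Per kilobase of exon, *Tectb* exceeded *Tecta* 4.22-, 5.35-, 3.26- and 6.45-fold in control input and 9.01- to 13.1-fold in control IP. The ratio was 5.05, 6.05, 9.10 and 5.80 in DTR input and 9.45, 10.5, 15.3 and 12.5 in DTR IP. Within a genotype the IP ratios lay above all input ratios, whereas DTR IP and control IP overlapped. These ratios were not tested. Before clustering, the study's methods corrected for an effect of gene length that was specific to samples in the IP libraries. No such correction was made here, and division by exon length does not remove an effect that differs between IP and input. Its part in the ratios per kilobase and in IP against input was not tested.

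**Figure D3:**
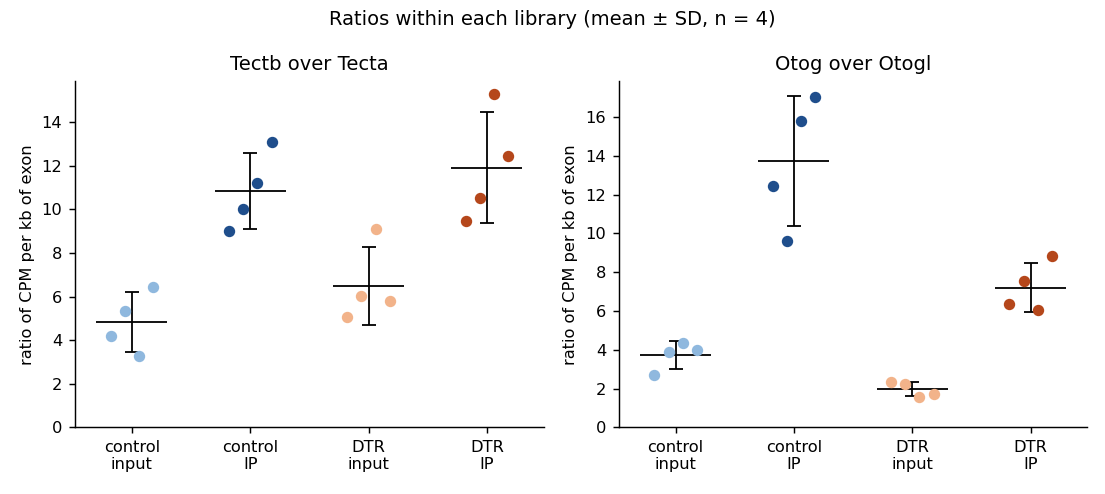
Ratio of CPM per kilobase of exon within each library (vertical axes, from 0), for *Tectb* over *Tecta* and *Otog* over *Otogl*, by group with mean ± SD of 4 libraries. Both ratios are higher in IP than in input of the same genotype, and *Otog* over *Otogl* is lower in DTR than in control.

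Otogelin changed strongly after damage. *Otog* (chr7:46240987-46311434, plus strand, 10.3 kb of exon) had 211, 267, 360 and 228 CPM in control input and 448, 496, 594 and 576 CPM in control IP. It had 84.2, 92.8, 73.6 and 103 CPM in DTR input and 161, 207, 157 and 197 CPM in DTR IP. No 2 of the 4 groups overlapped, the closest being control input, from 211 CPM upwards, and DTR IP, up to 207 CPM. Mean CPM was 2.93-fold lower in DTR IP than in control IP and 3.01-fold lower in DTR input than in control input. Both changes passed (LFC −1.56 ± 0.15, adjusted p = 7.29e-07, and −1.52 ± 0.15, adjusted p = 9.65e-07), and the stricter rule was met under all 27 settings run. In the main fit *Otog* was the only one of the 6 tested genes called higher in IP, 1.99-fold by mean CPM in controls (LFC 1.09, adjusted p = 1.52e-05) and 2.04-fold in DTR (LFC 1.06, adjusted p = 2.69e-05). Without control input replicate 3 the change in input was −1.36 (adjusted p = 2.37e-06) and IP against input in controls 1.24 (adjusted p = 2.39e-06). The change after damage did not differ detectably between IP and input (difference −0.038, adjusted p = 0.999).

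Otogelin-like, its close relative, was less abundant and distributed in the opposite way. *Otogl* (chr10:107760531-107912134, minus strand, 8.76 kb of exon) had 65.7, 58.0, 69.9 and 48.1 CPM in control input and 30.5, 43.7, 31.8 and 28.6 CPM in control IP. DTR input had 30.4, 35.0, 39.2 and 50.6 CPM, and DTR IP had 21.4, 23.2, 21.9 and 18.9 CPM. Input lay above IP without overlap in each genotype, and DTR IP below control IP. IP was lower than input in controls (LFC −0.84, adjusted p = 0.000270) and in DTR (LFC −0.88, adjusted p = 0.000212). After damage *Otogl* fell in IP (LFC −0.67 ± 0.16, adjusted p = 0.00542) and in input (LFC −0.64 ± 0.16, adjusted p = 0.00922), although the input groups overlapped. Without control input replicate 3 the change in input was −0.56 (adjusted p = 0.0389) and IP against input in controls −0.76 (adjusted p = 0.00159). Per kilobase of exon, *Otog* exceeded *Otogl* 2.72- to 4.36-fold in control input, 9.62- to 17.0-fold in control IP, 1.59- to 2.34-fold in DTR input and 6.06- to 8.83-fold in DTR IP, and no 2 of the 4 ranges overlapped.

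Otoancorin was not called lower after damage in IP or input. *Otoa* (chr7:121081650-121163097, plus strand, 8.44 kb of exon) had 758, 737, 1219 and 989 CPM in control input and 303, 351, 281 and 359 CPM in control IP. DTR input had 1094, 1235, 1274 and 1311 CPM, and DTR IP had 300, 368, 245 and 307 CPM. The IP groups overlapped fully, and 3 of 4 DTR input libraries were above every control input library. IP was lower than input 2.86-fold by mean CPM in controls (LFC −1.38, adjusted p = 6.57e-07) and 4.03-fold in DTR (LFC −1.88, adjusted p = 2.07e-08), and without control input replicate 3 the LFC in controls was −1.25 (adjusted p = 2.88e-06). No change after damage was detected in IP (LFC −0.039, 95% interval −0.35 to 0.27, adjusted p = 0.899). In input the LFC of 0.46 ± 0.15 passed narrowly (adjusted p = 0.0459), with the call lost under 16 of 26 alternatives. It was 0.44 (adjusted p = 0.0767) without quantile normalization, 0.40 (adjusted p = 0.137) in edgeR and 0.37 (adjusted p = 0.165) without control input replicate 2, and 0.59 (adjusted p = 0.0106) without control input replicate 3. The ratio of *Otoa* to *Tecta* CPM was 0.205 to 0.301 in control input and 0.535 to 0.702 in DTR input. In IP it was 0.0954 to 0.120 in controls and 0.176 to 0.234 in DTR.

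*Umodl1* showed the largest change of the 6 tested genes. It (chr17:30954640-31010710, plus strand, 5.19 kb of exon) had 35.9, 37.2, 57.7 and 47.0 CPM in control input, from 1322 to 2386 reads, and 5.14, 6.75, 4.00 and 5.46 CPM in control IP. DTR input had 2.72, 2.20, 1.63 and 2.92 CPM, and DTR IP had 0.450, 0.854, 1.72 and 1.71 CPM, from 14 to 52 reads. Control input stood apart from all other groups, control IP came next, and the DTR groups overlapped each other. Mean CPM fell 18.8-fold in input after damage (LFC −4.07 ± 0.27, adjusted p = 3.05e-09) and 4.51-fold in IP (LFC −2.04 ± 0.27, adjusted p = 2.27e-05). In controls IP was 8.33-fold lower than input (LFC −2.86 ± 0.27, adjusted p = 1.39e-07) and met the stricter rule, which 0.471% of tested genes met as lower. Without control input replicate 3 these LFCs against control input were −3.92 (adjusted p = 3.33e-08) and −2.72 (adjusted p = 1.20e-06). In DTR IP was 2.00-fold lower (LFC −0.83, adjusted p = 0.0186) with overlapping groups, and the LFC was −0.56 (adjusted p = 0.0743) without DTR IP replicate 1 and −0.72 (adjusted p = 0.0568) without DTR input replicate 4. Without the filter on low values the adjusted p was 0.0531. The difference between the changes in IP and input was 2.03 ± 0.38, with an unadjusted p of 3.78e-05 and an adjusted p of 0.0917, beside 0.0118% of tested genes called for this difference in either direction. With pools as a block its adjusted p was 0.0268, in DESeq2 0.00142 and in edgeR 0.189. Antisense genes overlap *Umodl1*, from which its reads cannot be told apart.

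CEACAM16 was scarcely detected at P4. *Ceacam16* (chr7:19852097-19861299, minus strand, 1.64 kb of exon) had 0.218 to 0.643 CPM in control input and 0.359 to 0.582 CPM in control IP. DTR input had 0.473 to 0.822 CPM and DTR IP 0.386 to 1.32 CPM, and each library held 9 to 40 reads of it. All 4 groups overlapped. It lies over *Gm19345*, a gene on the other strand with group means of 0.471 to 0.818 CPM, from which its reads cannot be told apart.

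**Figure D4:**
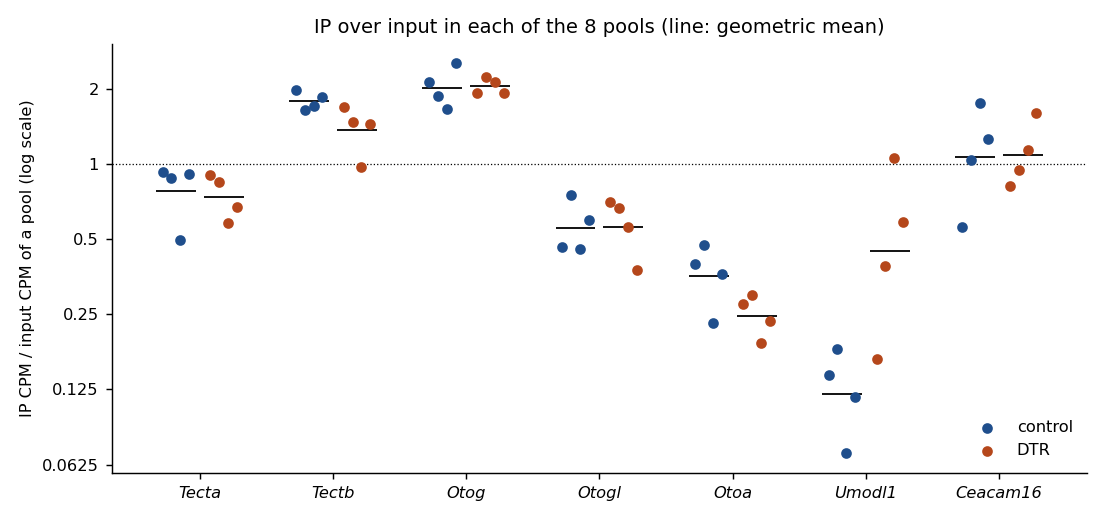
CPM in IP over CPM in input of the same pool (vertical axis, log scale) for each gene, with 4 control and 4 DTR pools and the geometric mean as a line. *Otog* is above 1 in all 8 pools, *Tectb* in 7 of 8, and *Tecta*, *Otogl* and *Otoa* are below 1 in all 8.

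IP over input could be followed pool by pool, because each input was taken from the homogenate of its IP. *Otog* was higher in IP in all 8 pools (1.65- to 2.52-fold), and *Otogl* was at 0.374 to 0.754 of input. *Otoa* was at 0.230 to 0.475 in control pools and at 0.192 to 0.298 in DTR pools. *Umodl1* was at 0.0693 to 0.181 in control pools and at 0.166 to 1.05 in DTR pools, where its IP level was close to 1 CPM. *Tecta* was at 0.495 to 0.926 and at 0.578 to 0.906. The lowest value of *Tecta* in controls belonged to pool 3, whose input held the outlying level, while its IP was level with the others.

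Across the 16 libraries, profiles of log2 normalized CPM fell into unequal pairs. Pearson's r, given as a description since the libraries share pools and groups, was 0.90 between *Tecta* and *Umodl1*, 0.84 between *Tecta* and *Otogl*, 0.83 between *Otogl* and *Umodl1* and 0.78 between *Tectb* and *Otog*. It was 0.40 between the tectorins, 0.066 between *Otog* and *Otogl* and −0.60 between *Otog* and *Otoa*. By the same measure the genes most like the mean profile of the 6 tested members, among those with at least 5 CPM on average, were *Syt1* (r = 0.98), *Cobl* (0.98), *Arhgap27* (0.97), *Masp1* (0.97), *Sel1l3* (0.96), *Lgr5* (0.96), *Dsg2* (0.96), *Nrcam* (0.96), *Cd44* (0.96) and *Ptpre* (0.96). *Masp1* averaged 24.4 CPM in input and 10.9 CPM in IP of controls, and 2.72 CPM in input and 1.28 CPM in IP of DTR, the largest LFC after damage of these 10. *Hey1*, a Notch target, was most like *Tectb* (r = 0.90), followed by *Slc25a18* (0.90) and *Gna14* (0.88). *B4galt5*, a galactosyltransferase, was most like *Otog* (0.97), followed by *Kif21a* (0.97) and *Slc46a3* (0.96). *Tecta* was most like *B930095G15Rik* (0.95), *Arhgap27* (0.95) and *Masp1* (0.95), and *Otogl* most like *Robo1* (0.95), *Ptprk* (0.95) and *Itih5* (0.95). *Umodl1* was most like *Smagp* (0.98), *Npy* (0.97), listed here among pillar and Deiters markers, and *Sez6l* (0.96), and *Otoa* most like *Acss2*, *Xpo5* and *Smtnl2* (each 0.97).

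Some genes next to the members also changed after damage, beside 7.30% of all tested genes lower and 8.44% higher in IP and 5.21% lower and 7.17% higher in input. *Ush1c*, which lies 2.5 kb from *Otog* and encodes harmonin, a scaffold of hair cell stereocilia, fell after damage in IP (LFC −1.12, adjusted p = 6.19e-05) and in input (LFC −0.81, adjusted p = 0.00178). It was not called higher in IP than in input of controls (LFC 0.33, adjusted p = 0.109), unlike *Otog*. *Gpam*, 53.5 kb from *Tectb*, fell in IP (LFC −0.76, adjusted p = 0.0132), and so did *Tbcel*, 12.4 kb from *Tecta* (LFC −0.63, adjusted p = 0.0122), while in input they did not pass (LFC −0.35, adjusted p = 0.323, and −0.40, adjusted p = 0.137). *Ppp1r12a*, the gene after *Otogl*, and *Bcl3*, the gene before *Ceacam16*, rose in IP (LFC 0.59, adjusted p = 0.000352, and 0.91, adjusted p = 0.00223) and in input (LFC 0.44, adjusted p = 0.00486, and 1.38, adjusted p = 3.81e-05). *Sc5d*, *Ptprq*, *Mettl9* and *Abcg1*, next to *Tecta*, *Otogl*, *Otoa* and *Umodl1*, were not called after damage in IP or input. *Gucy2g*, *Hs3st2*, *Ceacam19*, *Glp1r* and *Myod1* averaged under 0.3 CPM in each group.

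Genes of collagens and of other inner ear gel proteins did not follow the glycoproteins as a body. Collagen RNA in these samples may come from cells other than those that secrete the gel. In IP, 4 of 7 mesenchymal markers were also called higher after damage, and the source of the collagen RNA was not tested. Of 8 collagens of the tectorial membrane, none fell after damage, and *Col2a1*, *Col5a2* and *Col11a1* rose in IP (LFC 0.55, 0.64 and 0.54), where 8.44% of tested genes were higher, a count that ranged from 1 to 5 over the 10 alternatives that kept all libraries. The call of *Col2a1* was lost under 6 of these 10 alternatives (adjusted p up to 0.333), among them those without quantile normalization (0.166) and in edgeR (0.178), and that of *Col11a1* under 2 (up to 0.0655). None was called in input, but *Col2a1* was the top-ranked gene of every input library, so that quantile normalization set its change there to 0, and without that step its LFC was 0.019 (adjusted p = 0.978). The median LFC of the 8 was 0.46 in IP and 0.044 in input. In controls 4 of the 8 were lower in IP than in input, where 20.7% of tested genes were, the 3 with the largest change being *Col5a2* (LFC −0.72), *Col2a1* (−0.65) and *Col5a1* (−0.53). That call of *Col2a1* was lost under 5 of the 10 (adjusted p up to 0.219), among them those without quantile normalization (LFC −0.40) and in edgeR (−0.32). Of 4 other proteins of inner ear gels, *Otol1* (otolin) fell in IP (LFC −1.11, adjusted p = 0.0203), where 7.30% of tested genes were lower. *Emilin2* fell in input (LFC −0.87, adjusted p = 0.0154), where 5.21% were. Both calls were lost without the filter on low values (adjusted p = 0.0613 and 0.0507). *Strc*, which encodes stereocilin of hair cells, and *Emilin2* were lower in IP than in input in controls (LFC −2.62 and −1.85). *Oc90*, a protein of the vestibular otoconia, was not called in IP (LFC −1.37, adjusted p = 0.292) or in input (LFC −1.02, adjusted p = 0.518). With the replicate number as a block it was lower in both (adjusted p = 0.00259 and 0.0233).

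**Figure D5:**
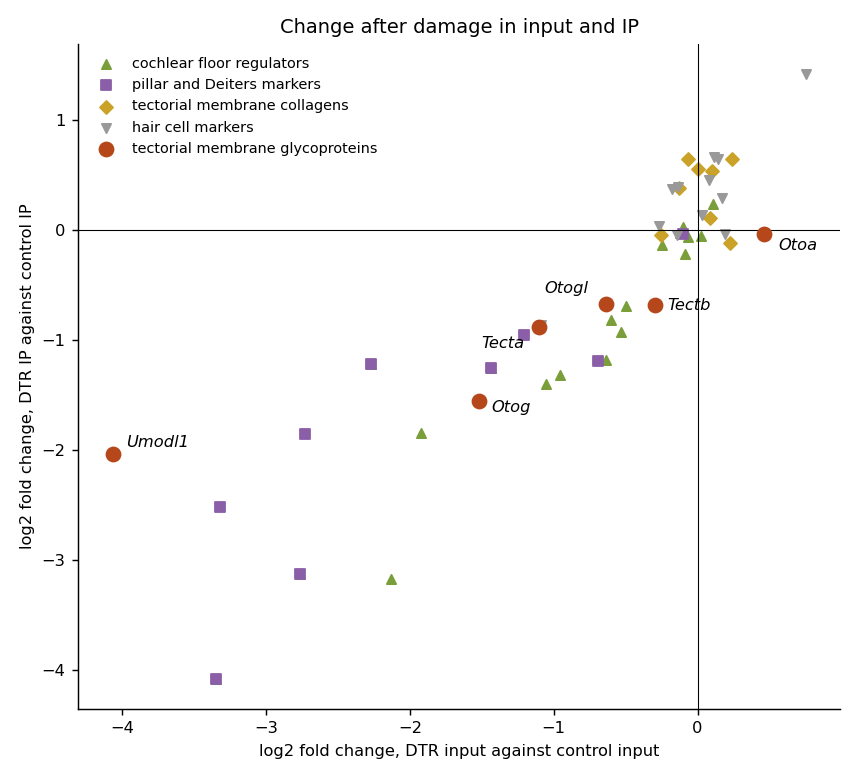
LFC of DTR against control in input (horizontal) and in IP (vertical), with the 6 tested glycoprotein genes named beside 4 other gene lists. Genes on 2 lists carry the pillar and Deiters symbol. *Otog* lies among regulators and pillar and Deiters markers that fell, and *Umodl1* fell further in input than any of these. *Otoa* lies near 0 in IP, beside collagens and hair cell markers.

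Regulators of the cochlear floor fell widely. Of 19 tested transcription factors and signals, 11 were lower after damage in IP, beside 7.30% of all tested genes, and 11 in input, beside 5.21%, and none was higher, with medians of −0.93 and −0.60. The largest changes in IP were those of *Lfng*, a modulator of Notch (LFC −4.08), *Fgf20*, a growth factor of the prosensory domain (−3.17), and *Hes5*, a Notch target (−3.13). In controls 11 of the 19 were higher in IP than in input, beside 19.3% of tested genes, led by *Lfng* (1.92), *Isl1* (1.91) and *Fgf20* (1.27). *Sox2*, which marks supporting cells, went from 89.9 to 34.9 CPM in IP (LFC −1.40), and *Gata3* from 682 to 370 CPM (−0.82). Of 6 tested genes of thyroid hormone action, which matures the gel, *Klf9* rose (LFC 0.49, adjusted p = 0.00974) and *Slc16a10*, a hormone transporter, fell in IP (−0.86, adjusted p = 0.000701). *Klf9* (LFC 1.61), *Dio2* (0.64) and *Thra* (0.57) were among 4 higher in IP than in input in controls, the call of *Dio2* being lost without the filter on low values (adjusted p = 0.0948). Of 21 genes of the secretory pathway of glycoproteins, 4 fell in IP after damage and none rose, a count that ranged from 1 to 8 over the alternatives that kept all libraries, the largest changes being *Galnt1* (LFC −0.80) and *Galnt2* (−0.72), which start O-glycans, and *Pdia4* (−0.48), a folding enzyme, with a median of −0.19. The call of *Galnt2* was lost under 6 of the 10 alternatives (adjusted p up to 0.108) and that of *Pdia4* under 3 (up to 0.122). In controls, 5 of the 21 were lower in IP than in input and 2 higher, shares near or below the 20.7% and 19.3% of all tested genes, with the largest changes in *Uggt1* (−0.90), *Galnt2* (0.72) and *Pigk* (−0.51). Over the alternatives 4 to 8 were lower and 1 to 2 higher, and *Galnt2* was not called without the filter on low values (adjusted p = 0.0605).

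Cell type markers also changed after damage. *Lfng*, *Hes5*, *Hey2* and *Prox1* are both pillar and Deiters markers and regulators counted above, so these lists are not independent. Of 9 markers of pillar and Deiters cells, 7 fell in IP and 8 in input, beside 7.30% and 5.21% of all tested genes, led in IP by *Lfng*, *Hes5* and *Fgfr3* (LFC −2.52). Their summed level went from 1470 ± 94.2 to 622 ± 79.8 CPM in IP and from 1278 ± 125 to 647 ± 31.7 CPM in input, with *S100a1* or *Tuba1b* as the most abundant and none at 0 in any library. Of 12 markers of medial supporting and GER cells, 6 fell in IP, beside 7.30% of tested genes, and 3 in input, beside 5.21%. In input 1 rose, beside 7.17% of tested genes. The largest falls in IP were those of *Fst* (−2.35), *Lgr5* (−1.93) and *Fabp7* (−1.43). *Lgr5* marks the cells that the toxin targets, so its fall was set by the design. *Epyc*, the most abundant of these 12 in IP, was not called in IP (LFC 0.19) and was called higher in input (0.49, adjusted p = 0.0432), a call lost under 6 of 10 alternatives (adjusted p up to 0.246), and their sum in IP was 9058 ± 593 CPM in controls and 8749 ± 611 CPM in DTR. The part of these markers in the change of the glycoprotein genes was not tested.

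Markers of other cells also differed. The summed 12 hair cell markers, most abundant *Myo6*, went from 774 ± 78.4 CPM in control input to 282 ± 36.3 in control IP, and 11 of the 12 were lower in IP, led by *Otof* (LFC −2.67), *Pvalb* (−2.20) and *Ocm* (−2.001), while *Atoh1* was higher (LFC 0.86, adjusted p = 0.00832). In control IP against control input markers of other cells were lower too, to unequal extents, beside 20.7% of tested genes: glial markers went from 3242 ± 819 to 1002 ± 220 CPM summed (4 of 5 lower), endothelial from 113 ± 11.3 to 35.0 ± 7.61 (5 of 5), macrophage from 91.3 ± 3.49 to 17.3 ± 4.26 (6 of 6) and red blood cell from 459 ± 114 to 95.4 ± 24.2 (4 of 4 tested). Mesenchymal markers went from 7867 ± 246 to 5727 ± 509 CPM (4 of 7 lower), neuronal from 468 ± 319 to 168 ± 114 (2 of 6, or 6 with the replicate block) and those of the stria vascularis from 63.9 ± 37.4 to 26.4 ± 7.10 (3 of 5 tested, from 1 to 5 over the alternatives). The count was 2 to 4 for the mesenchyme over the same alternatives. After damage, where 5.21% of all tested genes were lower and 7.17% higher in input and 7.30% and 8.44% in IP, the sum of the hair cell markers in input was 724 ± 62.0 CPM, and 1 of 12 fell there, *Atoh1* (−1.09). In IP the sum went from 282 ± 36.3 to 348 ± 25.3 CPM, where *Slc17a8* (LFC 1.42), *Otof* (0.66) and *Myo6* (0.37) rose and *Atoh1* (−0.87) fell, and 1 to 4 rose over the alternatives that kept all libraries. The call of *Myo6* was lost under 5 of the 10, that of *Otof* under 2 and that of *Atoh1* under 1. Glial markers, most abundant *Mbp* in control input, summed to 1487 ± 281 CPM in DTR input against 3242 ± 819 in control input, and 4 of 5 fell. In IP they went from 1002 ± 220 to 672 ± 80.2 CPM, where 1 of 5 fell, *Mbp* (LFC −0.97, adjusted p = 0.0112), a count that was 1 to 4 over the alternatives that kept all libraries. Macrophage markers went from 91.3 ± 3.49 to 153 ± 31.6 CPM summed in input, 3 of 6 being called, and from 17.3 ± 4.26 to 37.8 ± 6.43 CPM in IP, where *C1qb* (LFC 1.36), *Csf1r* (1.01) and *C1qa* (0.99) rose. Mesenchymal markers went from 5727 ± 509 to 7236 ± 628 CPM in IP, 4 of 7 being called. Red blood cell markers summed to 459 ± 114 and 277 ± 70.0 CPM in control and DTR input with none of 4 called, a count of lower genes that ranged from 0 to 3 over the alternatives that kept all libraries, and in IP to 95.4 ± 24.2 and 69.3 ± 29.0 CPM with none called. Endothelial markers summed to 113 ± 11.3 and 118 ± 19.1 CPM in control and DTR input with none of 5 called, and in IP they went from 35.0 ± 7.61 to 48.2 ± 4.08 CPM, where *Pecam1* rose (LFC 0.78, adjusted p = 0.00295). Neuronal markers ranged from 173 to 784 CPM summed in control input and from 86.8 to 665 CPM in DTR input, none of 6 being called after damage, or 3 lower in input and 1 in IP with the replicate block. Stria vascularis markers, most abundant *Cldn11* or *Dct* in control input, summed to 63.9 ± 37.4 and 35.4 ± 9.56 CPM in control and DTR input, with 1 of 5 tested called, *Kcne1* (LFC −2.16). In IP they summed to 26.4 ± 7.10 and 25.4 ± 5.77 CPM, and *Kcne1* fell there too (LFC −1.59, adjusted p = 0.0183), a call lost without the filter on low values (adjusted p = 0.0641). Each of these cell type lists had every gene above 0 in every library except that of the stria vascularis, where up to 2 were at 0. The part of these markers in the results was not tested.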

How the data were processed

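Cochlear RNA of 16 libraries was analysed. The authors deposited CPM for each gene and library. Per the study's methods, reads were aligned to GRCm38 with HISAT2 and counted with HTSeq, while the submitters' processing notes name TopHat. The annotation release and strand setting are not given in the sources used here. The columns were checked: with a tolerance of 0.01, 100% of the values were whole multiples of 1 read, so reads were recovered for edgeR (4.0.16) and DESeq2 (1.42.0), used as alternatives. Quantile normalization and the damage criteria were adapted from the study's methods, which raise low values to a floor before the fold change, whereas here the floor entered the separation alone. With the floor in the fold change as well, an alternative chosen after seeing the data, the same members met the stricter rule. limma on the deposited unit was the main test, in place of the study's DESeq2. The study's correction of IP libraries for gene length, made before clustering, was not applied. Of 50316 genes, 2587 were NA in every library.

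CPM were quantile normalized and log2 transformed with a pseudocount of 0.5. Group means were fitted over all 16 libraries with limma (3.58.1, in R 4.3.3), whose prior variance followed the mean, and p-values were adjusted over 16994 genes. Separation used values raised to at least 1.08 CPM, the 10th percentile. Exon lengths, positions and neighbours came from GENCODE M21.

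Replicate numbers paired the libraries: deviations from group means correlated between libraries of the same number in every pair (lowest 0.288 between input and IP of controls and 0.291 between genotypes in input). IP and input of a number share a pool by the study's methods, and a shared origin across genotypes is not stated. The scripts were tested on simulated data.

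The members, lists and motifs were chosen with earlier results of these data known. The genes named were the members, the 5 most abundant genes in each IP, *Lgr5* and *Slc1a3*, the 3 genes most like each member and 10 most like their mean, the nearest coding genes, and of each list the 3 with the largest LFC past the threshold. *Sox2*, *Gata3*, *Masp1*, *Oc90* and *Kcne1* were singled out after their values were seen, as were *Myo6* in IP and list members named for input. Alternatives left out normalization, centred on library medians, changed the pseudocount (0.1 and 1) and the minimum CPM (none and 2), fitted the compared groups alone, added the replicate block, used edgeR or DESeq2 and left out each library.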

Additional observations from a re-analysis of the deposited data

Results flagged for a closer look

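The *Tecta* level of control input replicate 3 stood apart from the other 3 libraries of its group, at 5943 CPM where the others had 3139, 3357 and 3290 CPM. Its gap to the next library was 0.922 of the range of the group, above Dixon's 95% critical value for 4 libraries. This was the single such value among 28 checks, 7 genes in 4 groups, of which chance would pick about 1 in 20. The IP library of the same pool had 2943 CPM. The cause was not tested.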

How the results depend on the processing

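Of 294 values of single genes under alternatives other than leaving out a library, 263 kept their direction and side of the threshold, 12 lost and 12 gained a call and 7 reversed, and of 480 with a library left out, 447 kept, 12 lost, 7 gained and 14 reversed. The reversed values were all of differences without a call. For the change in IP minus that in input they were −0.078 (no quantile normalization), −0.11 (centred), −0.061 (edgeR) and −0.039 (DESeq2) for *Tecta*, 0.018 and 0.0027 (no quantile normalization and DESeq2) for *Otog*, and 0.016 (no quantile normalization) for *Otogl*. With single libraries left out this difference ranged from −0.19 to 0.072 for *Otog* and −0.16 to 0.092 for *Otogl*, *Tectb* in DTR IP against DTR input from −0.10 to 0.16, and *Otoa* in DTR IP against control IP from −0.12 to 0.062.

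The number of members called was within 1.5 times under all alternatives in the 4 comparisons of groups. For the difference between IP and input it was 0 and became 1, *Umodl1*, with a pseudocount of 1, with the replicate block, in DESeq2 and without DTR IP replicate 1 (range 0 to 1 with a library left out). The median LFC of the members was −0.57 in edgeR for control IP against control input, and −0.95 in both edgeR and DESeq2 for DTR IP against control IP. Over all tested genes, the replicate block called 1879 lower in IP and 1358 in input after damage in place of 1240 and 885, and 15 higher and 25 lower for the difference between IP and input in place of 0 and 2, where DESeq2 called 24 and 25 and edgeR 0. At an unadjusted p under 0.05, limma found 870 genes for that difference and edgeR 920. The stricter rule for lower in control IP took 122 genes in edgeR and 125 in DESeq2 in place of 80. The block changed no member's call other than *Tecta* in DTR IP against DTR input and the *Umodl1* difference. Without a filter on low values *Tectb* was not called in DTR IP against control IP (adjusted p = 0.130), nor *Umodl1* in DTR IP against DTR input (adjusted p = 0.0531).

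Quantile normalization holds *Tectb* at the top value in control IP, which removes its spread there. Depth limits the precision for *Ceacam16* and for *Umodl1* in DTR IP. *Umodl1* missed the stricter rule in IP after damage with a minimum of 2 CPM, when the floor rises, and met it under the 26 other settings. *Otoa* met that rule in DTR IP against DTR input under 4 of 27 settings. *Tecta* met it in DTR input against control input under 2 of 27.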
